A study of Mus musculus with 4 samples.

Results

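The genes of cholesterol and fatty acid synthesis were examined cell by cell in mouse spinal cord, as a set of 29 genes out of 32287 measured gene features. They were chosen by their place in the pathway, with earlier results of these data known, and comprise 18 enzymes of the path from acetyl-CoA to cholesterol, 4 regulators and carriers of sterols, and 7 enzymes that make, elongate or desaturate fatty acids. The cells came from adult mice of a Cx30-tdTomato line, in which tamoxifen and a Cx30 Cre driver switch on the red protein tdTomato from the R26R locus, mainly in astrocytes. All mice, uninjured controls included, had also received in the blood a library of adeno-associated viruses carrying candidate enhancers. At 3 days after a contusion 5 mm of cord around its centre was dissociated and sorted for tdTomato, and the matching stretch of cord from mice without injury served as control. Each condition is 1 gene expression library described as pooled from 1 or 2 animals per sex. The uninjured data go against this, since 2770 of its cells were scored male and only 2 female. The comparison of conditions therefore has no replicate check, and no p-values are given. Intervals are 95% intervals for counting error alone.

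Cells make cholesterol from acetyl-CoA by way of mevalonate, farnesyl diphosphate, squalene and lanosterol. In the adult nervous system this synthesis is local, since cholesterol in the blood does not pass the blood-brain barrier, and astrocytes are known to make sterols and pass them on in lipoproteins. The pathway is switched on as a unit by SREBP transcription factors, which are held in the endoplasmic reticulum with SCAP by INSIG proteins when sterols are plentiful, and are released to bind sterol regulatory elements together with the CCAAT-binding factor NF-Y when sterols are scarce. SREBP-2, from Srebf2, acts mainly on sterol genes and SREBP-1, from Srebf1, mainly on fatty acid genes.

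The injured library held 879 cells and 8499672 gene UMIs (unique molecular identifiers, which count molecules) after filtering, and the uninjured library 4159 cells and 15543460 gene UMIs, with medians of 6816 and 3343 UMIs per cell. Only 7 cell barcodes occurred in both. Astrocyte-like cells, named from 10 markers that were all detected in each of their 5 clusters, numbered 408 in the injured and 3097 in the uninjured library, with medians of 3702 and 3279 UMIs. The other cells of the injured library were mostly ependymal-like (144), microglia-like (128), endothelial-like (70), fibroblast-like (43) and OPC-like (41, oligodendrocyte progenitors), and 862 uninjured and 32 injured cells stayed unnamed. Of the injured astrocyte-like cells, 336 fell in cluster 1, whose leading genes include Gfap, Cryab and Timp1, while only 32 of the uninjured ones did and the rest fell in clusters 4, 6, 9 and 12. Levels are the summed UMIs of a gene per 1000000 gene UMIs of the class (CPM).

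Since the members are known to share control by SREBP, the promoters of 4 are shown for the letters of this control. They are Hmgcs1 and Insig1, classical SREBP targets that were lower in the injured library, Mvd, with the lowest ratio of the set, and Ebp, the 1 member with a higher level beyond counting error. Each is the 250 bases before the RefSeq transcription start on GRCm38.p6, 5′ to 3′ on the gene's strand, with 3 motifs in capitals on either strand: CACNCCAC (core of a sterol regulatory element), CCAAT (the NF-Y box) and GGGCGG (the GC box bound by Sp factors).
Hmgcs1, chr13:119690101-119690350, plus strand: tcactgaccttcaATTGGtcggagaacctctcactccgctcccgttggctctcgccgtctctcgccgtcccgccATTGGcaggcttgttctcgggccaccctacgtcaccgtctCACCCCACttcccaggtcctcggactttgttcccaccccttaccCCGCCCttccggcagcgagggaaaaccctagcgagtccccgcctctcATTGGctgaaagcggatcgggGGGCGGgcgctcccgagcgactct
Insig1, chr5:28071162-28071411, plus strand: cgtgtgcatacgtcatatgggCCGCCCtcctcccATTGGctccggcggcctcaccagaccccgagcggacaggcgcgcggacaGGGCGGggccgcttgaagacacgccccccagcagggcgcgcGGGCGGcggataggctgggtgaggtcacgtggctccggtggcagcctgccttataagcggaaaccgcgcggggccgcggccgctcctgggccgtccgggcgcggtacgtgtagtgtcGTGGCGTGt
Mvd, chr8:122443423-122443672, minus strand: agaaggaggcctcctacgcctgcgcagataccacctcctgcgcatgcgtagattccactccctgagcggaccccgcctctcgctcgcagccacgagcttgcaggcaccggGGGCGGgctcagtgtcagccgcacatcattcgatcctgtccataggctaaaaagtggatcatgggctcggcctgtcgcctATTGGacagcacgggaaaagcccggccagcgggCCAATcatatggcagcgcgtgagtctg
Ebp, chrX:8193513-8193762, minus strand: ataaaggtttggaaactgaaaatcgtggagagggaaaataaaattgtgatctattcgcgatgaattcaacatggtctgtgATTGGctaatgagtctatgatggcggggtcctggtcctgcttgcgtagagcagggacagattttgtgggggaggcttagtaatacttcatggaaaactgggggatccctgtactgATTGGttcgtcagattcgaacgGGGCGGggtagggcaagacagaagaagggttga

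Hmgcs1 and Insig1 each hold 1 match of the sterol element core, and Mvd and Ebp hold none. All 4 hold at least 1 CCAAT box and 1 GC box, so these boxes were found both in the gene with the lowest ratio and in the gene with the highest. Promoters of 300 bases, from 250 before to 50 after the start, were found for 23 of the 29 members. The CCAAT box was present in 20 of these 23 (87.0%), against 43.4% of the genes measured in astrocyte-like cells that had a promoter in the table and 41.1% of all genes in it. It was found in 12 of 14 members that were at least 2-fold lower in the injured library and in 8 of 9 that were not. The GC box was present in 78.3% of members and 71.0% of measured genes, and the sterol element core in 3 members (13.0%) and 7.49% of measured genes. These are letter matches in a short window and not binding sites.

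Across astrocyte-like cells the sterol enzymes were lower in the injured library as a group. Their summed level was 981 CPM (941 to 1023) in the injured and 2414 CPM (2386 to 2443) in the uninjured library, a ratio of 0.406 (0.389 to 0.424). All 29 members were measured, that is at a mean of at least 10 CPM over both libraries, and 18 of them were at least 2-fold lower in the injured library with an interval that left out 1. None was at least 2-fold higher. Of the 9422 genes measured, 8.19% were lower and 14.0% higher by this rule. The median log2 ratio was -1.31 over the members and 0.0087 over all genes measured. An interval wholly below 1 was found for 25 members and for 31.7% of all genes measured, and an interval above 1 for 1 member and for 33.7%.

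The 2-fold calls depend on which astrocyte-like cells are set side by side. Within cluster 1 alone, which held 336 injured but only 32 uninjured cells, the ratio of the sterol sum was 0.675 (0.587 to 0.778) and 2 of 27 members measured were called lower, a share like that of all genes there (7.15%). The ratio was above 1 there for Acat2, Mvk, Sc5d, Stard4, Elovl5 and Elovl6, on 1 to 15 uninjured UMIs each. Tm7sf2 had 19 injured and 0 uninjured UMIs there and so no finite ratio. If clusters were named with leading genes counted from 10% of cells in place of 25%, cluster 1 lost its name because of the smooth muscle gene Tagln. The class then held 95 injured and 3367 uninjured cells. These numbers match cluster 5, with neuron genes among its leading genes (23 injured and 302 uninjured cells), being counted in. Of the injured cells 56 were from cluster 4, where mitochondrial genes took 45.8% of the injured UMIs. The ratio was 0.255, with 20 members and 12.5% of all genes called lower, and the parts of these changes were not tested.

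**Figure D1:**
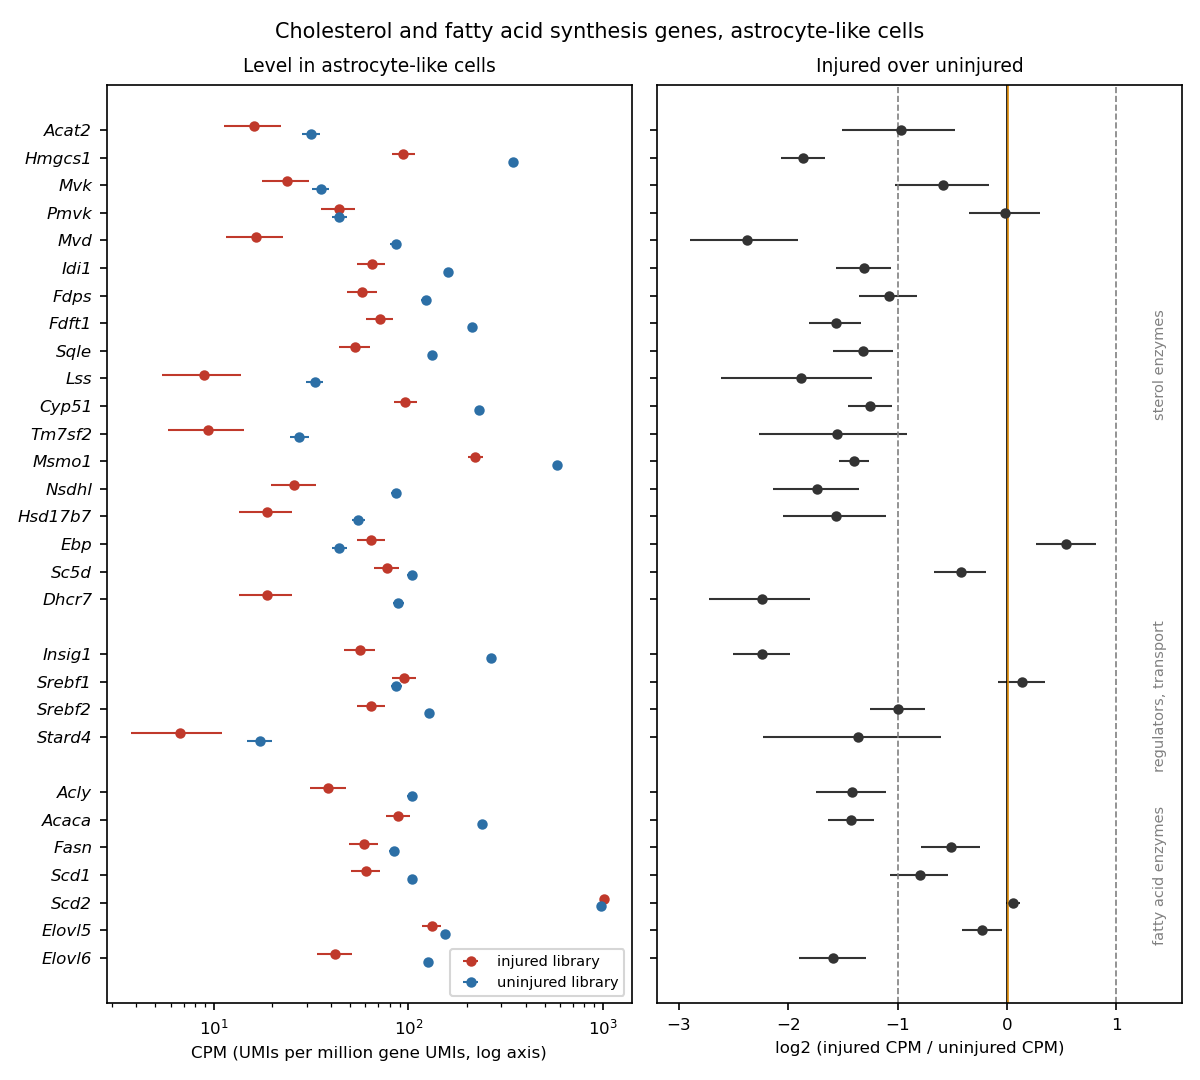
Levels of the 29 members in astrocyte-like cells of the injured (red) and uninjured (blue) library in CPM on a log axis (left), and the log2 ratio of injured over uninjured (right), with 95% counting intervals as bars. Dashed lines mark 2-fold, the orange line the median of all genes measured. Most sterol enzymes lie left of the 2-fold line, while Pmvk, Srebf1 and Scd2 lie near 0 and Ebp lies to its right.

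The entry into the pathway showed both the widest and the narrowest gaps. Hmgcs1, the synthase of HMG-CoA, was at 94.2 CPM (211 UMIs) in the injured and 342 CPM (3876 UMIs) in the uninjured library, a ratio of 0.275 (0.239 to 0.316). Acat2, the thiolase of the first step, was at 16.1 CPM (36 UMIs) and 31.5 CPM (357 UMIs), a ratio of 0.510 (0.351 to 0.719) just short of the 2-fold rule. Acat2 has a near-identical neighbour, Acat3, with which it may share reads, so its values are uncertain. The 3 enzymes that turn mevalonate into isopentenyl diphosphate went different ways. Mvk, which adds the first phosphate, was at 23.7 CPM (53 UMIs) and 35.5 CPM (402 UMIs), a ratio of 0.667 (0.491 to 0.889). Pmvk, which adds the second, was at 43.7 CPM (98 UMIs) and 44.2 CPM (501 UMIs), with an interval of the ratio that included 1 (0.788 to 1.23). Mvd, the decarboxylase that follows, was at 16.5 CPM (37 UMIs) and 86.0 CPM (974 UMIs), which is 5.21-fold lower and the lowest ratio of all members, 0.192 (0.134 to 0.267). Consecutive enzymes of the path thus ran from an interval around 1 to the lowest ratio.

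The enzymes that join isoprene units into squalene were all lower by more than 2-fold. Idi1, the isomerase of isopentenyl diphosphate, was at 64.7 CPM (145 UMIs) in astrocyte-like cells of the injured library and 160.2 CPM (1815 UMIs) in those of the other. Fdps, which makes farnesyl diphosphate, was at 58.0 CPM (130 UMIs) and 123 CPM (1392 UMIs). Fdft1, the squalene synthase that commits farnesyl diphosphate to sterols, was at 71.4 CPM (160 UMIs) and 212 CPM (2397 UMIs). Their ratios were 0.404 (0.339 to 0.479), 0.472 (0.391 to 0.566) and 0.338 (0.286 to 0.396). Sqle, the squalene epoxidase and a rate-limiting step of the later path, was at 53.1 CPM (119 UMIs) and 132 CPM (1495 UMIs), a ratio of 0.402 (0.331 to 0.485). Lss, which closes the rings to lanosterol, had only 20 UMIs in the injured library, where it was at 8.93 CPM, against 33.0 CPM (374 UMIs) in the uninjured one. A single cell held 20% of those injured UMIs of Lss, the largest such share of any member, and the interval of its ratio of 0.270 is wide (0.163 to 0.424).

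From lanosterol onwards 6 of the 8 enzymes were called lower. Cyp51, the lanosterol demethylase, was at 96.4 CPM (216 UMIs) and 229 CPM (2596 UMIs), and Tm7sf2, a sterol reductase, at 9.37 CPM (21 UMIs) and 27.5 CPM (312 UMIs). Msmo1, which oxidises the methyl groups at carbon 4, was at 220.1 CPM (493 UMIs) and 580.2 CPM (6573 UMIs), a ratio of 0.379 with a narrow interval (0.345 to 0.416). Its partners in that removal were lower too, Nsdhl at 25.9 CPM (58 UMIs) and 86.2 CPM (977 UMIs), and Hsd17b7 at 18.7 CPM (42 UMIs) and 55.3 CPM (626 UMIs). The ratios of these 5 genes ran from 0.300 (Nsdhl) to 0.421 (Cyp51). The next enzymes broke the pattern. Ebp, the isomerase that shifts the ring double bond, was higher in the injured library, at 64.3 CPM (144 UMIs) against 44.2 CPM (501 UMIs), a ratio of 1.45 (1.20 to 1.75). That direction was not stable, since the ratio was 0.991 within cluster 1 and 0.574 with leading genes counted from 10% of cells. Sc5d, the desaturase after it, was at 77.2 CPM (173 UMIs) and 104 CPM (1174 UMIs), a ratio of 0.745 (0.631 to 0.875). Dhcr7, the reductase of 7-dehydrocholesterol that ends this branch, was at 18.7 CPM (42 UMIs) and 88.8 CPM (1006 UMIs), 4.74-fold lower and close to Mvd in its ratio (0.151 to 0.287).

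The sensors and switches of the pathway had unlike ratios over all astrocyte-like cells. Insig1, the retention protein whose gene is itself an SREBP target, was at 56.2 CPM (126 UMIs) after injury and 265 CPM (3005 UMIs) without it, 4.72-fold lower (0.212, 0.176 to 0.253). Srebf2 was at 64.3 CPM (144 UMIs) and 128 CPM (1452 UMIs), a ratio of 0.501 (0.420 to 0.595) on the edge of the 2-fold rule. Srebf1 was at 95.1 CPM (213 UMIs) and 86.5 CPM (980 UMIs), with an interval that included 1 (0.943 to 1.28). Stard4, which carries cholesterol through the cytosol, was at 6.70 CPM (15 UMIs) and 17.2 CPM (195 UMIs), a ratio of 0.389 (0.214 to 0.658) that rests on few UMIs. The intervals of the 2 SREBP genes did not overlap over all astrocyte-like cells. Within cluster 1 they did, at 0.620 (0.402 to 1.00) for Srebf1 and 0.740 (0.419 to 1.43) for Srebf2, in the opposite order.

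The fatty acid enzymes divided between the steps. Their sum was 1434 CPM (1385 to 1484) in the injured and 1785 CPM (1760.0 to 1809) in the uninjured library, a ratio of 0.803 (0.774 to 0.834), and Scd2 supplied most of the injured sum. Scd2, the stearoyl-CoA desaturase of brain, was at 1014 CPM (2271 UMIs) and 974 CPM (11037 UMIs), a ratio of 1.04 (0.994 to 1.09). Without Scd2 the other 6 enzymes summed to 420.0 CPM (394 to 448) and 810.2 CPM (794 to 827), a ratio of 0.518 (0.484 to 0.554). The neighbouring gene Scd1, which encodes a desaturase of the same reaction and lies beside it on chromosome 19 (GRCm38, chr19:44394455-44407879, with Scd2 at chr19:44293674-44306864), was at 60.3 CPM (135 UMIs) and 105 CPM (1187 UMIs), a ratio of 0.575 (0.478 to 0.688). The intervals of the paralogs did not overlap over all astrocyte-like cells, but they did within cluster 1, at 0.662 (0.381 to 1.24) for Scd1 and 0.974 (0.828 to 1.15) for Scd2.

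The first steps of fatty acid synthesis were lower. Acly, which makes cytosolic acetyl-CoA from citrate, was at 38.8 CPM (87 UMIs) in the injured and 104 CPM (1175 UMIs) in the uninjured library. Acaca, the acetyl-CoA carboxylase that sets the rate, was at 88.4 CPM (198 UMIs) and 237 CPM (2688 UMIs). The ratios of both were close, 0.374 (0.298 to 0.466) and 0.372 (0.321 to 0.430). Fasn, which builds palmitate from their products, was less far apart at 58.9 CPM (132 UMIs) and 84.2 CPM (954 UMIs), a ratio of 0.700 (0.579 to 0.840). The elongases also differed. Elovl6, which lengthens palmitate, was at 42.0 CPM (94 UMIs) and 126 CPM (1428 UMIs), 3.00-fold lower (0.267 to 0.410 as a ratio). Elovl5, which lengthens polyunsaturated chains, was at 132 CPM (295 UMIs) and 154 CPM (1746 UMIs), a ratio of 0.854 (0.753 to 0.967).

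Neighbouring processes were compared in the same cells, where 8.19% of all genes were called lower and 14.0% higher. Of 25 other genes of lipid synthesis and its control, all measured, 5 were called lower and 1 higher, with a median log2 ratio of -0.50. The lowest were Acss2, which makes acetyl-CoA from acetate, at 46.4 CPM (104 UMIs) with and 232 CPM (2630 UMIs) without injury, and Pcyt2, an enzyme of phosphatidylethanolamine synthesis, at 43.7 CPM (98 UMIs) and 193 CPM (2190 UMIs). Aacs, which makes acetoacetyl-CoA for sterols, was also lower at 12.9 CPM (29 UMIs) and 40.3 CPM (456 UMIs). The 1 gene called higher was Elovl1, an elongase of very long chains, at 43.7 CPM (98 UMIs) and 14.6 CPM (165 UMIs), a ratio of 3.00 (2.31 to 3.88). Among 10 genes of sterol efflux and storage, 7 were measured and none was called in either direction, with a median log2 ratio of -0.13. The furthest from 1 were Npc2, a lysosomal sterol carrier, at 312 and 159 CPM, a ratio of 1.97 (1.80 to 2.15), and the sterol exporter gene Abca1 at 182 and 124 CPM, a ratio of 1.47 (1.31 to 1.64). Of 10 genes of fatty acid oxidation and lipid droplets, all measured, the 1 called was the lipid droplet coat gene Plin2, higher at 112 CPM against 44.0 CPM, a ratio of 2.56 (2.19 to 2.98).

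The same UMIs were next viewed cell by cell with depth set equal, where the difference remained. The intervals of these shares treat the cells of 1 library as separate draws and do not cover differences between animals. Each astrocyte-like cell was thinned to 1000 gene UMIs, which left out 33 injured and 67 uninjured shallower cells. At least 1 sterol enzyme UMI was then found in 51.7% of 375 cells (46.5 to 56.9%) of the injured library. In the uninjured library it was found in 84.7% of 3030 cells (83.3 to 85.9%). The unthinned shares, over all 408 and 3097 astrocyte-like cells with the shallower ones included, were 80.1% and 96.1%. In microglia-like cells, the class with the lowest sterol sum, the thinned share was 13.2% of 121 cells (7.75 to 20.6%) in the injured and 42.9% of 28 cells (24.5 to 62.8%) in the uninjured library, where the median depths before thinning were 13724 and 3169 UMIs. The mean number of sterol UMIs per 1000 was 0.893 with and 2.36 without injury. Cells with 5 or more made up 1.07% and 12.9% of the cells. The variance of the count over its mean was 1.48 and 1.53 in the 2 libraries.

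**Figure D2:**
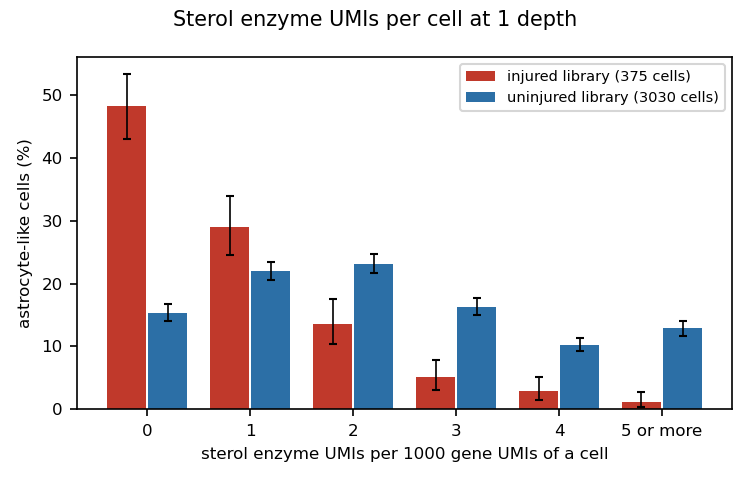
Share of astrocyte-like cells (%) by the number of sterol enzyme UMIs among 1000 gene UMIs drawn from each cell, for the injured (red, 375 cells) and uninjured (blue, 3030 cells) library, with exact binomial 95% intervals. The injured cells are most often at 0 and the uninjured cells most often at 2.

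Within the uninjured library the sterol enzymes also varied between astrocyte-like clusters, which had been formed without any of the pathway genes. Their sum was 2902 CPM in cluster 9 (974 cells), 2395 CPM in cluster 6 (514 cells), 2217 CPM in cluster 12 (883 cells), 1653 CPM in cluster 4 (694 cells) and 1513 CPM in cluster 1 (32 cells). The counting intervals of clusters 4 and 1 overlapped and those of clusters 9, 6 and 12 did not overlap with each other. Among the 4 clusters with many uninjured cells, 16 of 18 sterol enzymes were at their highest in cluster 9. The share of all measured genes that were highest there was not counted, so this cannot be read as particular to the pathway. Msmo1 was at 755, 585, 509 and 296 CPM in clusters 9, 6, 12 and 4, a 2.55-fold span. Ebp had the widest span, 63.7, 43.0, 35.4 and 10.9 CPM in the same order. Lss, Srebf2, Acly, Acaca and Elovl6 had the opposite extremes, highest in cluster 4 and lowest in cluster 9. The spans were 1.63-fold for Elovl6, 1.56-fold for Acaca and 1.37-fold for Lss, the last on 62 and 123 UMIs. They were only 1.13-fold for Srebf2 and 1.08-fold for Acly, and no intervals were computed for these spans. Elovl6 was at 174 CPM in cluster 4 and 107 CPM in cluster 9, Acaca at 309.9 and 199 CPM, and the sterol enzyme gene Lss at 39.6 and 28.9 CPM. Cluster 4 was led by mitochondrial genes, its uninjured cells had a median of 1894 UMIs against 4058 in cluster 9, and 11.3% of its UMIs were mitochondrial against 5.37%. The part of depth and mitochondrial RNA in this order was not tested.

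The difference between libraries had the same direction in each cluster that held at least 20 cells of both. In cluster 4 the sterol sum was 291 CPM in 56 injured cells and 1653 CPM in 694 uninjured cells, a ratio of 0.176 (0.119 to 0.251), and mitochondrial genes took 45.8% of the injured UMIs there. Without cluster 4 the ratio over the other astrocyte-like cells was 0.400. In cluster 5, which had astrocyte markers but neuron genes among its leading genes and stayed unnamed, the sums were 776 and 2283 CPM. Cluster 1 gave the narrowest gap, 1020.2 against 1513 CPM. There the 2 genes called lower, a share near the 7.15% of all genes, were Fdps, at 59.5 CPM (123 UMIs) with injury and 169.6 CPM (25 UMIs) without it, a ratio of 0.351 (0.227 to 0.563), and Insig1, at 56.6 CPM (117 UMIs) with injury and 149 CPM (22 UMIs) without it, a ratio of 0.379 (0.239 to 0.628). Hmgcs1 was at 96.2 CPM (199 UMIs) with injury and 189.9 CPM (28 UMIs) without it, a ratio of 0.507 (0.340 to 0.782). Msmo1 was at 232 CPM (480 UMIs) with injury and 251 CPM (37 UMIs) without it, a ratio of 0.925 (0.661 to 1.33). In the sterol sum the uninjured cells of cluster 1 were thus below those of clusters 6, 9 and 12. Pmvk, Fdps and Ebp were higher in them than in each of those clusters, and the other sterol enzymes were lower. There were 2 to 37 UMIs of each sterol enzyme to compare in the uninjured cells of cluster 1, and none of Tm7sf2.

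**Figure D3:**
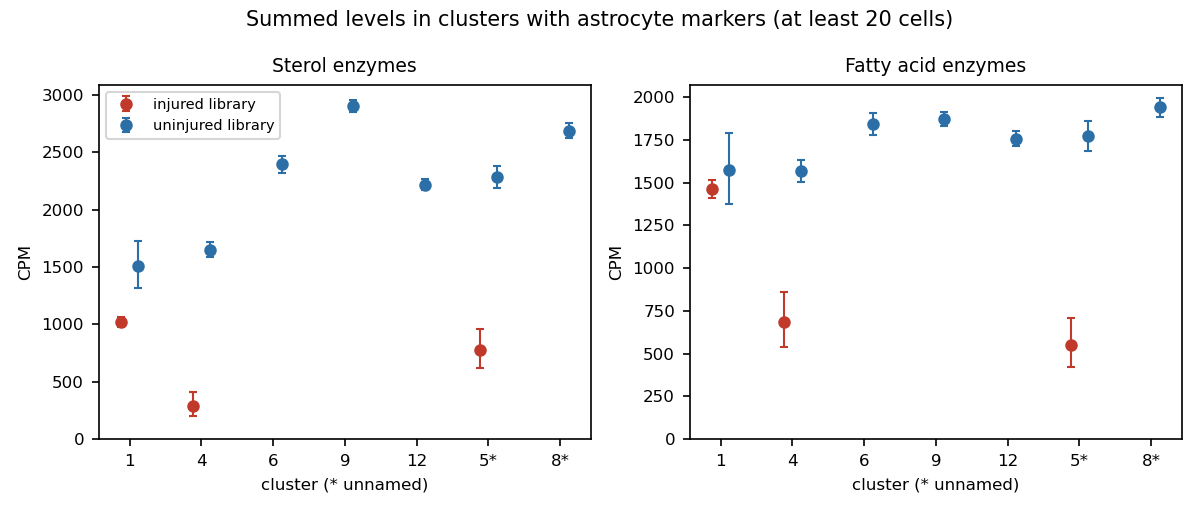
Summed CPM of the 18 sterol enzymes (left) and the 7 fatty acid enzymes (right) in the clusters with astrocyte markers, for the injured (red) and uninjured (blue) library, with exact Poisson 95% intervals; only clusters with at least 20 cells of a library are drawn and an asterisk marks unnamed clusters. The injured points of clusters 1, 4 and 5 lie below the uninjured points for sterol enzymes, while for fatty acid enzymes the intervals of cluster 1 overlap.

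The sexes were unequally sampled, against the description of the uninjured library. Of injured cells 315 were scored male and 250 female from Xist and 4 Y-linked genes, against 2770 and 2 uninjured cells, so female cells could not be compared between conditions. Among cells scored male alone (126 injured and 2115 uninjured astrocyte-like cells) the sterol sum was 1099 and 2395 CPM, a ratio of 0.459, and 14 members and 5.42% of all genes were called lower. The 73 injured astrocyte-like cells scored female had a sterol sum of 819.9 CPM (752 to 893) and a fatty acid sum of 1646 CPM, against 1099 CPM (1035 to 1166) and 1425 CPM in those scored male. The count of animals behind each is at most 2, so this cannot be told apart from a difference between animals.

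Markers of other cells also differed with the condition within the astrocyte-like class. The 8 neuron markers all had UMIs and summed to 231 CPM (212 to 252) with and 126 CPM (119 to 132) without injury, the 13 microglia markers to 187 CPM (169 to 205) and 97.1 CPM (91.5 to 103), and the 8 oligodendrocyte markers, all with UMIs, to 329 CPM (305 to 353) and 267 CPM (258 to 277). The 10 astrocyte markers themselves summed to 12901 CPM (12752 to 13050.4) and 16578 CPM (16503 to 16653), a ratio of 0.778 (0.769 to 0.788). Because these markers also named the class, their ratio is no yardstick for that of the sterol sum. Of the microglia markers 11 of 13 had a UMI in these cells of the injured library and 12 in those of the uninjured one. Tmem119, which defines resident microglia, was at 0 in both libraries and the receptor gene Csf1r at 0 after injury. In microglia-like cells of the injured library the same 13 markers summed to 30957 CPM. Their part in the result was not tested.

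Between cell classes of the injured library the sterol enzymes were highest in OPC-like and astrocyte-like cells. The sum was 1368 CPM (1295 to 1444) in OPC-like, 981 CPM (941 to 1023) in astrocyte-like, 473 CPM (424 to 526) in fibroblast-like, 373 CPM (330.1 to 419) in endothelial-like, 321 CPM (295 to 349) in ependymal-like and 231 CPM (209 to 253) in microglia-like cells. Neighbours in this order had intervals that did not overlap other than endothelial-like and ependymal-like cells, which could not be ordered. OPC-like cells stood above astrocyte-like cells in the injured library, with a ratio of 1.39 (1.30 to 1.49). In the uninjured library the order was the other way round, at 1772 CPM (1514 to 2061) in 14 OPC-like cells and a ratio to astrocyte-like cells of 0.734 (0.627 to 0.854). The injured OPC-like cells were deep, with a median of 22050 UMIs, and at 1000 UMIs per cell their ratio to astrocyte-like cells was 1.72. Among cells scored male it was 1.12.

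**Figure D4:**
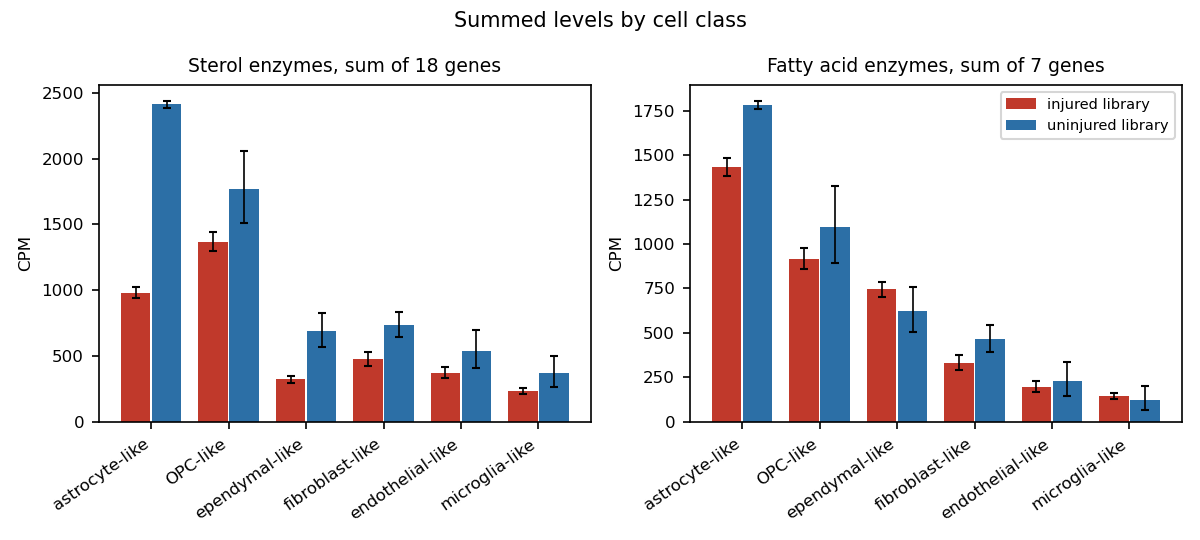
Summed CPM of the sterol enzymes (left) and the fatty acid enzymes (right) by cell class in the injured (red) and uninjured (blue) library, with bars from 0 and exact Poisson 95% intervals. The uninjured astrocyte-like bar is the highest of the sterol panel, and in the fatty acid panel both astrocyte-like bars stand above every other class.

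Single members differed between OPC-like and astrocyte-like cells in both directions. In the injured library 6 of 29 members were at least 2-fold higher in OPC-like cells and 4 at least 2-fold lower, where 22.8% and 13.1% of 10110 genes measured were called higher and lower, so both counts were near the background. The 6 were Acat2, Hmgcs1, Fdps, Stard4, Acly and Elovl6. Hmgcs1 was at 319 CPM in OPC-like and 94.2 CPM in astrocyte-like cells, a ratio of 3.38 (2.83 to 4.05), and Elovl6 at 138 and 42.0 CPM, a ratio of 3.29 (2.51 to 4.34). Srebf1 went the opposite way at 17.5 and 95.1 CPM, a ratio of 0.184 (0.105 to 0.302), as did Scd1, Scd2 and Elovl5. Msmo1 was at 149 and 220.1 CPM, a ratio of 0.675 (0.557 to 0.814). The summed level of all 29 members gave a ratio near 1, 0.946 (0.901 to 0.991).

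The other classes carried less of the pathway. In ependymal-like cells 18 members were at least 2-fold lower than in astrocyte-like cells of the injured library and none was higher, where 17.2% of genes were called lower and 18.9% higher. In microglia-like cells 19 were lower and none higher (30.0% and 20.1% of genes), in endothelial-like cells 17 lower and 1 higher (23.5% and 20.8%), and in fibroblast-like cells 12 lower and none higher (20.3% and 20.3%). Between 24 and 27 members were measured in these comparisons. The member higher in endothelial-like cells was Stard4, at 72.1 CPM (54 UMIs) against 6.70 CPM in astrocyte-like cells, a ratio of 10.8 (5.99 to 20.5). Ebp was at 66.6 CPM in microglia-like and 66.8 CPM in endothelial-like cells, close to its 64.3 CPM in astrocyte-like cells. It was lower in ependymal-like cells, at 23.0 CPM and a ratio of 0.358 (0.245 to 0.513), and in fibroblast-like cells, at 41.6 CPM and a ratio of 0.647 (0.421 to 0.964). Srebf2 was at 66.7 CPM in ependymal-like and 40.2 CPM in microglia-like cells, against 64.3 CPM in astrocyte-like cells, while Scd1 had no UMI in microglia-like cells of the injured library.

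**Figure D5:**
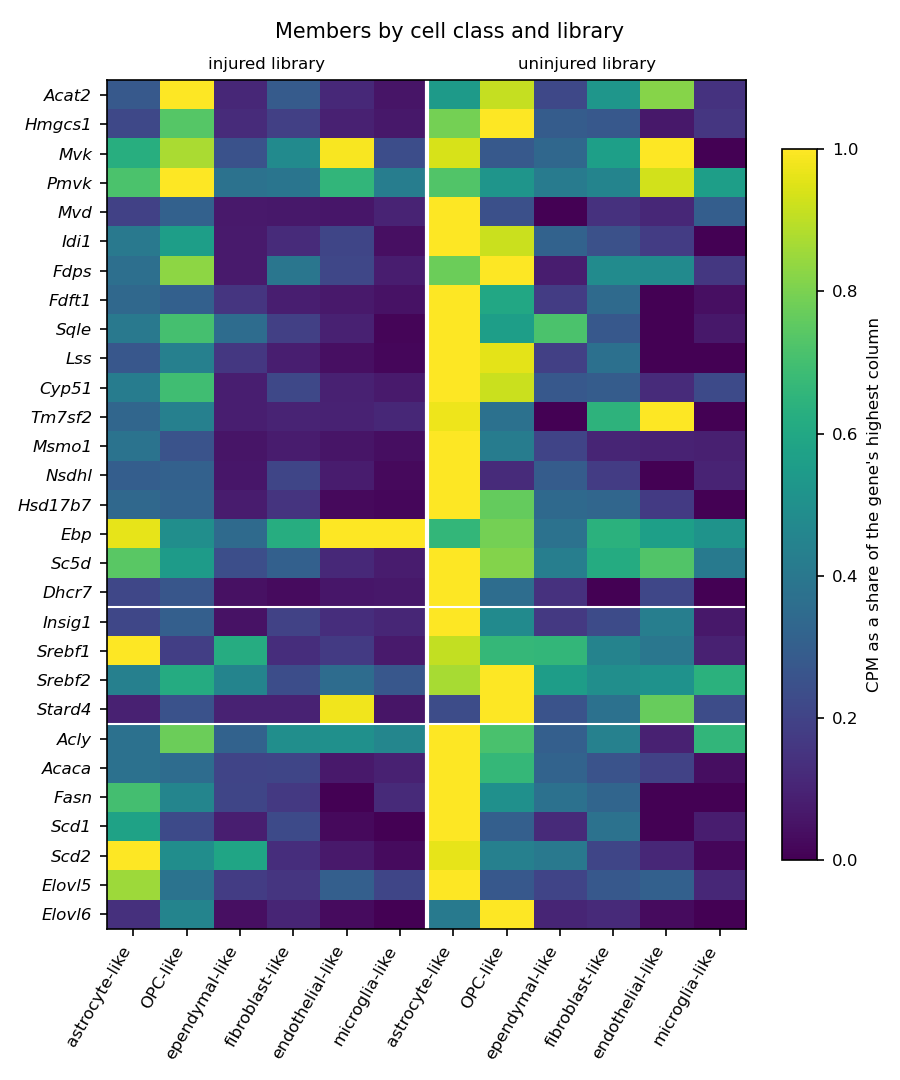
Level of each member (rows) by cell class and library (columns), as CPM divided by the highest of the 12 columns for that gene, from 0 (dark) to 1 (yellow); white lines divide the libraries and the 3 groups of members. Most sterol enzymes are at or near their highest in uninjured astrocyte-like cells, and Ebp, Srebf1 and Scd2 stay high in injured astrocyte-like cells.

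Fatty acid enzymes followed another order than sterol enzymes. Their sum in the injured library was 918 CPM (859 to 981) in OPC-like cells, 745 CPM (704 to 787) in ependymal-like, 329 CPM (288 to 373) in fibroblast-like, 195 CPM (165 to 229) in endothelial-like and 143 CPM (127 to 161) in microglia-like cells, all below astrocyte-like cells. The ratio of OPC-like to astrocyte-like cells was 0.640 (0.594 to 0.690), so the class with the higher sterol sum in CPM had the lower fatty acid sum. Scd2 made up most of the ependymal-like sum, at 597 CPM (561 to 635) of it.

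Other classes also had lower sterol sums in the injured library. The ratio of injured to uninjured was 0.467 (0.379 to 0.579) in ependymal-like, 0.627 (0.458 to 0.879) in microglia-like, 0.644 (0.545 to 0.763) in fibroblast-like, 0.693 (0.519 to 0.938) in endothelial-like and 0.772 (0.657 to 0.912) in OPC-like cells. Every one of these 5 intervals was below 1, and that of astrocyte-like cells, at 0.406 (0.389 to 0.424), lay lower than all but that of ependymal-like cells, whose interval overlapped it. Whether the classes differ was not tested. For fatty acid sums, to which Scd2 contributed much, the interval included 1 in OPC-like, ependymal-like, microglia-like and endothelial-like cells and was below 1 in fibroblast-like cells, at 0.710 (0.577 to 0.876). Without Scd2 the ratio was 0.647 (0.494 to 0.859) in OPC-like, 0.688 (0.479 to 1.02) in ependymal-like and 0.768 (0.581 to 1.02) in fibroblast-like cells. It was 1.12 (0.612 to 2.24) in endothelial-like and 1.10 (0.618 to 2.17) in microglia-like cells. The interval was then below 1 in OPC-like cells alone and included 1 in fibroblast-like cells. The ependymal-like ratio moved from above to below 1, and the endothelial-like ratio from below (0.861) to above 1. In ependymal-like cells Scd2 was higher in the injured library, at 597 against 410.1 CPM, a ratio of 1.46 (1.13 to 1.90), while Hmgcs1 was lower at 53.7 against 126 CPM, a ratio of 0.426 (0.260 to 0.729), and Msmo1 was lower at 32.5 against 119.9 CPM.

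Astrocyte markers were at unequal levels in the other classes of both libraries. The 10 astrocyte markers summed to 53.4 CPM (43.5 to 64.9) with and 257 CPM (173 to 366) without injury in microglia-like cells, to 101 CPM (79.9 to 127) and 641 CPM (498 to 813) in endothelial-like cells, and to 1102 CPM (1027 to 1181) and 2356 CPM (2193 to 2528) in fibroblast-like cells. In each of these, and in OPC-like and ependymal-like cells, the uninjured value was the higher one, as it was for the sterol sum. These 5 uninjured classes outside astrocytes held 14 to 95 cells. The part of astrocyte RNA in these ratios was not tested.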

How the data were processed

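Gene expression was measured by droplet sequencing (10x Genomics Chromium, 3′ chemistry) of sorted tdTomato-positive spinal cord cells, 1 library per condition. The authors deposited raw UMI counts per gene and cell, not normalised. Per the file headers they came from Cell Ranger 7.1.0, while the submitters' processing notes name 8.0.1 and mm10. Enhancer barcode features and libraries were not used here. A cell needed over 500 and under 50000 gene UMIs, and the upper limit removed 40 injured cells. Log values of scaled counts were clustered (2000 most variable genes, 15 components, a graph of 15 neighbours, Leiden at resolution 0.5) into 14 clusters (scanpy 1.11.5, igraph 0.11.9, Python 3.11.15). Clustering did not use the 54 pathway genes or the 2 added sequences tdTomato-WPRE and EGFP. A cluster took the class with the highest marker score (above 0.2) if 3 or more of its markers each occurred in 10% of the cells or more, and if markers of another class were not more frequent among the 10 leading genes. Leading genes were counted from 25% of cells, a limit raised from 10% after seeing that it left cluster 1 unnamed. Scrublet marked 2 cells, too few to have worked, so no doublets were removed, and leaving out the 5% highest scores was an alternative.

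UMIs were summed per library and class and divided by the total gene UMIs (CPM). Sums have exact Poisson intervals, ratios exact conditional binomial intervals, and shares exact Clopper-Pearson intervals, computed with scipy 1.17.1. A gene was called at a mean of at least 10 CPM, a 2-fold ratio and a 95% interval without 1. No p-values were computed, since cells are not replicates. The ratio was tested on simulated data. All members are named, and of other lists those furthest from 1. The members and lists were chosen with earlier results of these data known. Alternatives concerned cell filters, clustering, choice of astrocytes, sex, doublets, depth, scaling, pseudocount, floor and fold. Promoters came from RefSeq (GRCm38.p6), matched by symbol. Genes that are not reported here remain in the counts of lists.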

Additional observations from a re-analysis of the deposited data

How the results depend on the processing

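The log2 ratio of the sterol sum in astrocyte-like cells (-1.30) stayed below 0 in all 16 alternatives, as did the value for the fatty acid sum (-0.32). In cluster 1 alone, however, the interval of the fatty acid value included 0 (-0.300 to 0.0915). In the order sterol, fatty acid, the values outside the counting interval were -1.50 and -0.40 for cells with an Aldh1l1 UMI, -1.43 and -0.40 for the mean over cells, -1.18 and -0.20 for totals without mitochondrial, ribosomal protein and haemoglobin genes, -1.97 and -1.004 with leading genes counted from 10% of cells, and -0.57 and -0.11 in cluster 1 alone. For the sterol sum alone they were -1.12 for male cells and -1.40 after thinning, and for the fatty acid sum -0.38 with the unnamed clusters counted in. The count of members called lower (18) lay between 14 and 22 in all alternatives other than cluster 1 alone, where it was 2 with 32 uninjured cells, and none was called higher in any. The share of all genes called lower (8.19%) moved too, from 4.26% with 10 CPM added to 21.65% with the 1.5-fold rule. It was 5.42% in male cells, 13.59% after thinning and 7.15% in cluster 1 alone. For OPC-like over astrocyte-like cells the sterol log2 ratio (0.48) was 0.17 in male cells, 0.78 after thinning and 0.73 as a mean over cells, and the fatty acid one (-0.64) -0.81, -0.38 and -0.52. Reversals among members occurred in alternatives chosen after seeing the data: in cluster 1 alone for Acat2 (0.32), Ebp (-0.013), Elovl5 (0.43), Elovl6 (0.031), Mvk (0.25), Sc5d (0.40) and Stard4 (0.10), on 1 to 15 uninjured UMIs each, and for Ebp (-0.80) with leading genes from 10% of cells. The cause was not tested.

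Totals without mitochondrial, ribosomal protein and haemoglobin genes moved the median log2 ratio of all genes to 0.14, and that of the members to -1.19. The genes called were then 1677 higher and 573 lower, against 1318 and 772. Thinning gave 1297 and 1255, the 1.5-fold rule 2414 and 2040, 10 CPM added 829 and 401, and cluster 1 alone 513 and 687. A floor of 1 CPM gave 2331 and 1180, one of 50 CPM 588 and 372, male cells 1217 and 511, and leading genes from 10% of cells 780 and 1159. No paired analysis was possible because there is 1 library for injured and 1 for uninjured cords. No sample could be left out for the same reason, and differences between animals could not be measured.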

Other observations

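Clusters 5 and 8 carried all 10 astrocyte markers but neuron genes such as Nefl and Snap25 led them, so they stayed unnamed. In the uninjured library their sterol enzyme sums were 2283 CPM (302 cells) and 2688 CPM (560 cells), within the range of the astrocyte-like clusters. The 32 injured cells of both had a sterol sum of 793 CPM (657 to 949.9) and a fatty acid sum of 800.0 CPM (663 to 957), against 2576 CPM (2522 to 2630.3) and 1894 CPM (1848 to 1940.5) in the uninjured library. The 13 injured mural-like cells had 33 sterol enzyme UMIs, and the 3 uninjured ones 5.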
